A study of Homo sapiens with 12 samples.

Results

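The 10 genes described here carry glucose into the cell and break it down to lactate: the transporters SLC2A1 and SLC2A3, the hexokinases HK1 and HK2, the regulatory enzymes PFKFB3 and PFKFB4, the aldolases ALDOA and ALDOC, the kinase PGK1 and the lactate dehydrogenase subunit LDHA. They were taken by symbol from the 58735 genes of the count matrix, and each symbol matched a single Ensembl gene. The genes were listed for their function, with earlier results of these data known. ALDOC was chosen by its counts, which were higher with AG-205 in both lines, so its AG-205 values are given as a description without a test. The libraries came from HEC-1A, an established line of human endometrial adenocarcinoma of epithelial origin, and from T-HESC, human endometrial stromal cells immortalized with telomerase. Each line was exposed over 32 h to AG-205 at 15 µM, a small molecule sold as a ligand of the membrane protein PGRMC1, or to its vehicle DMSO as control, in 3 libraries per group and 12 in all. The study concluded that AG-205 lacks specificity for PGRMC1 and its related proteins. Neither line was genetically modified for these cultures, and all 4 groups were grown in DMEM/F12 medium with serum. Each cell type is represented by 1 line, so that line and cell type cannot be told apart, and the libraries were made from whole cultures, in which fewer expressing cells and less RNA per cell cannot be told apart.

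Glycolysis converts a molecule of glucose into pyruvate. Glucose enters through facilitative transporters, of which SLC2A1 (GLUT1) is the widespread basal form and SLC2A3 (GLUT3) a form with high affinity, hexokinases trap it as glucose 6-phosphate, and the PFKFB enzymes set the level of fructose 2,6-bisphosphate, the activator of the committed step at phosphofructokinase. Aldolase splits the 6-carbon sugar, phosphoglycerate kinase yields ATP, and lactate dehydrogenase reduces pyruvate to lactate. Several of these genes are known targets of hypoxia-inducible factors, and stromal cells of the endometrium raise glucose uptake as they decidualize.

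The promoters of ALDOC and PFKFB4 are shown because these genes had the highest folds with AG-205 among the 10 in HEC-1A. Both windows are RefSeq promoters on GRCh38.p14, from 250 bases before the transcription start to 50 bases after it, printed 5′ to 3′ on the minus strand, from which both genes are read, at chr17:28576846-28577145 for ALDOC and chr3:48556754-48557053 for PFKFB4. Capitals mark the letters searched for on either strand: ACGTG (the core of hypoxia response elements), CACGTG (an E-box, which contains that core), CCAAT (the box bound by NF-Y) and TCACNCCAC (a form of the sterol regulatory element).
ALDOC: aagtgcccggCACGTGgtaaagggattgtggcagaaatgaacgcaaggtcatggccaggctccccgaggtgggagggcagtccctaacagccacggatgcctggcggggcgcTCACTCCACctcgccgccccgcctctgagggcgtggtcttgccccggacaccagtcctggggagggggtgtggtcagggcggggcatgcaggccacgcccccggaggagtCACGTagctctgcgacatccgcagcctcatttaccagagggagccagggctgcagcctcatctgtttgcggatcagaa
PFKFB4: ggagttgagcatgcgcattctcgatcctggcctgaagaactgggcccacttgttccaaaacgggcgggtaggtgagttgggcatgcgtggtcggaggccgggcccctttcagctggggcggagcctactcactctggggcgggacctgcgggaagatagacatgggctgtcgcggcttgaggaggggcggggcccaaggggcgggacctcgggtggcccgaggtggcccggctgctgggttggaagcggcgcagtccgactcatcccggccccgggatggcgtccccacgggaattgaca
The ALDOC window held the E-box with its first base at position -240 from the start, the hypoxia core again at -28, and the sterol element at -138, whereas the PFKFB4 window held none of the letters searched for. Of 35116 RefSeq windows of this length, 21.4% held the hypoxia core, 7.26% the E-box, 34.6% the CCAAT box and 1.13% the sterol element. The RefSeq table had windows for 9 of the 10 genes, 20 in all, since HK1, HK2, PFKFB3, ALDOA and LDHA have several starts. Counted by window, 9 of the 20 held the hypoxia core, 5 the E-box, 6 the CCAAT box and 1 the sterol element. Counted by gene, the hypoxia core stood in windows of 6 (HK2, PFKFB3, ALDOA, ALDOC, PGK1 and LDHA), the E-box in those of 5 (the same genes except PGK1), the CCAAT box in those of 5 (SLC2A1, HK1, HK2, ALDOA and PGK1), and the sterol element in that of ALDOC alone. These are matches of letters in short windows, and binding was not measured.

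Total counts ranged from 7168542 to 15178276 per library. The cell type markers were read against the labels. The summed level of 5 epithelial markers was 1019 to 1357 CPM (counts scaled to a common library total) in HEC-1A and 222 to 368 CPM in T-HESC, where EPCAM and CDH1 were under 1 CPM. The epithelial keratins were not absent from T-HESC: KRT19 had means of 101 CPM in HEC-1A and 107 CPM in T-HESC with DMSO and of 210 and 220 CPM with AG-205, and KRT18 had 360 and 155 CPM with DMSO. The summed level of 6 stromal fibroblast markers was 8.43 to 14.0 CPM in HEC-1A and 12285 to 26472 CPM in T-HESC. Replicate libraries were much more alike in HEC-1A (biological coefficient of variation 10.1%) than in T-HESC (33.6%). The library that stood farthest from its group was T-HESC AG-205 replicate 1, whose median absolute log2 difference from the other 2 libraries was 0.516 over 14310 genes, against 0.289 and 0.408 for the other AG-205 libraries of T-HESC and 0.0783 to 0.246 for the 9 libraries of the other groups. It was the lowest of its group for 8 of the 10 genes (80%), against 46.8% of all 14310 genes, so the T-HESC results with AG-205 are followed by their values without that library, called replicate 1 there.

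**Figure D1:**
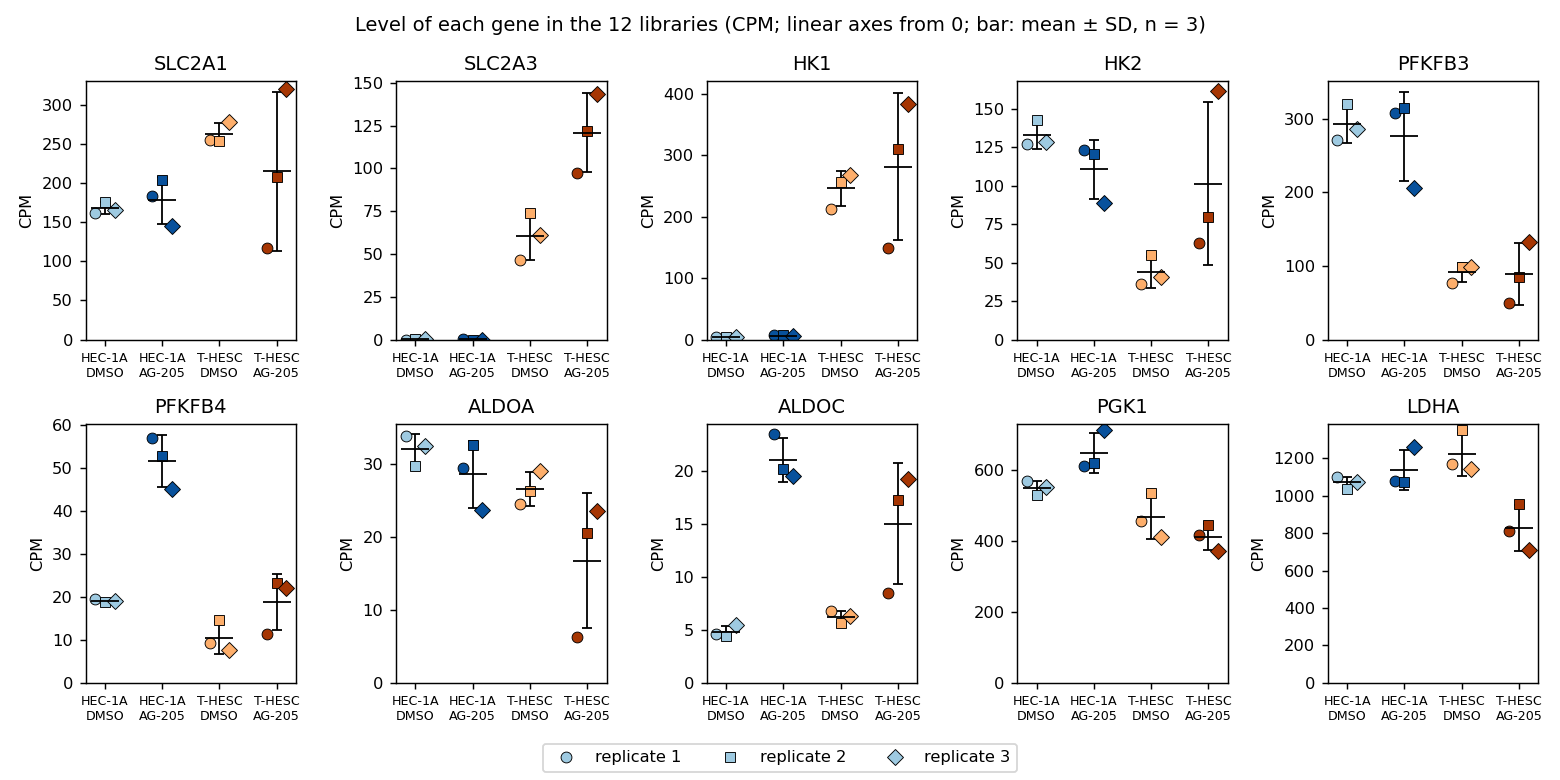
Level of each of the 10 genes in every library, in CPM on linear axes from 0 with a scale of its own for each gene, by cell line and treatment, with 3 libraries per group as points and black marks for mean ± SD. SLC2A3 and HK1 are low or nearly uncounted in HEC-1A, ALDOC lies higher with AG-205 than with DMSO in both lines, and the SD is largest in the AG-205 group of T-HESC for every gene except PFKFB3 (HEC-1A with AG-205) and PGK1 (T-HESC with DMSO).

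Per kilobase of exon, which allows genes to be ordered within a group, LDHA was the highest of the 10 and PGK1 the second in all 4 groups. In HEC-1A with DMSO their levels were 178 ± 5.11 and 101 ± 3.63 CPM per kb (SD, n = 3), followed by PFKFB3 at 47.8, SLC2A1 at 25.4, HK2 at 22.4, ALDOA at 8.36, PFKFB4 at 3.12, ALDOC at 1.84, HK1 at 0.614 and SLC2A3 at 0.0116 CPM per kb, and no 2 neighbours in this order overlapped between libraries. The place of ALDOA rests on the reads assigned to it, since another counted gene, ENSG00000285043, covers 92.9% of its coding bases. In T-HESC with DMSO, LDHA stood at 203 ± 18.8 and PGK1 at 86.0 ± 11.5 CPM per kb. SLC2A1 (39.7) and HK1 (35.7) followed and overlapped each other, then PFKFB3 (15.0), then SLC2A3 (8.34), HK2 (7.39) and ALDOA (6.95) with each overlapping the next, and last ALDOC (2.38) and PFKFB4 (1.71), which also overlapped. With AG-205 in HEC-1A the upper 5 places were kept and PFKFB4 (8.44), ALDOC (8.05) and ALDOA (7.46) overlapped in the middle of the order, whereas in T-HESC the places from HK1 (40.9) through SLC2A1 (32.5), HK2 (17.1) and SLC2A3 (16.7) to PFKFB3 (14.6) overlapped from each to the next.

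The lines were first compared in the control cultures, to ask how the untreated epithelial and stromal cells differ in these genes. A gene was called where its adjusted p was below 0.05 and its log2 difference was beyond 1 in size. Of the 10 genes, 2 were called higher in T-HESC (SLC2A3 and HK1) and 2 lower (HK2 and PFKFB3), 4 in all against 44.6% of 14789 genes tested (22.3% higher and 22.3% lower). SLC2A3 passed the filter on low counts through its T-HESC libraries alone, so its call is a description. Without the fold limit 6 of 10 passed, against 72.1% of all genes. The share of called genes among the 10 was thus close to that of all genes.

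SLC2A3 (chr12:7919230-8019007, minus strand, GRCh38) was nearly uncounted in HEC-1A, with 0, 2 and 1 counts in the DMSO libraries and 2, 0 and 0 in the AG-205 libraries. In T-HESC with DMSO it stood at 46.3, 74.2 and 61.1 CPM. The ratio of T-HESC to HEC-1A over the DMSO groups was 710 (95% counting interval 242 to 3443, from 2109 and 3 counts), and the interval covers counting error only. SLC2A1 (chr1:42925353-42958893, minus strand) was at 162, 176 and 166 CPM in HEC-1A and at 255, 254 and 279 CPM in T-HESC. The SLC2A1 groups did not overlap, and its log2 difference of 0.64 passed the adjusted p (0.000192) and stayed under the fold limit. SLC2A3 thus supplied 17.3 ± 3.48% of the summed SLC2A1 and SLC2A3 level per kb in T-HESC and under 0.05% in HEC-1A (n = 3 each).

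The lines held different hexokinase transcripts. HK1 (chr10:69269984-69401884, plus strand), the housekeeping hexokinase of most tissues, stood at 4.22, 4.18 and 4.26 CPM in HEC-1A and at 213, 256 and 268 CPM in T-HESC, a 57.8-fold difference (log2 difference 5.85 ± 0.134 SE, edgeR adjusted p = 7.26e-09). HK2 (chr2:74834127-74893359, plus strand), the inducible form of muscle and of many tumours, went the other way, with 127, 143 and 128 CPM in HEC-1A and 35.8, 54.9 and 40.6 CPM in T-HESC (3.05-fold lower, log2 difference -1.61 ± 0.152 SE, edgeR adjusted p = 1.83e-05). HKDC1, a hexokinase whose gene lies next to HK1 on chromosome 10, stood at 159, 165 and 168 CPM in HEC-1A and at 0.676, 0.757 and 2.1 CPM in T-HESC. Of the summed level per kb of the 5 hexokinase genes, HKDC1 made up 62.8 ± 1.39%, HK2 36.2 ± 1.46% and HK1 0.991 ± 0.0371% in HEC-1A, whereas in T-HESC HK1 made up 82.2 ± 2.46% and HK2 16.9 ± 2.60%.

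**Figure D2:**
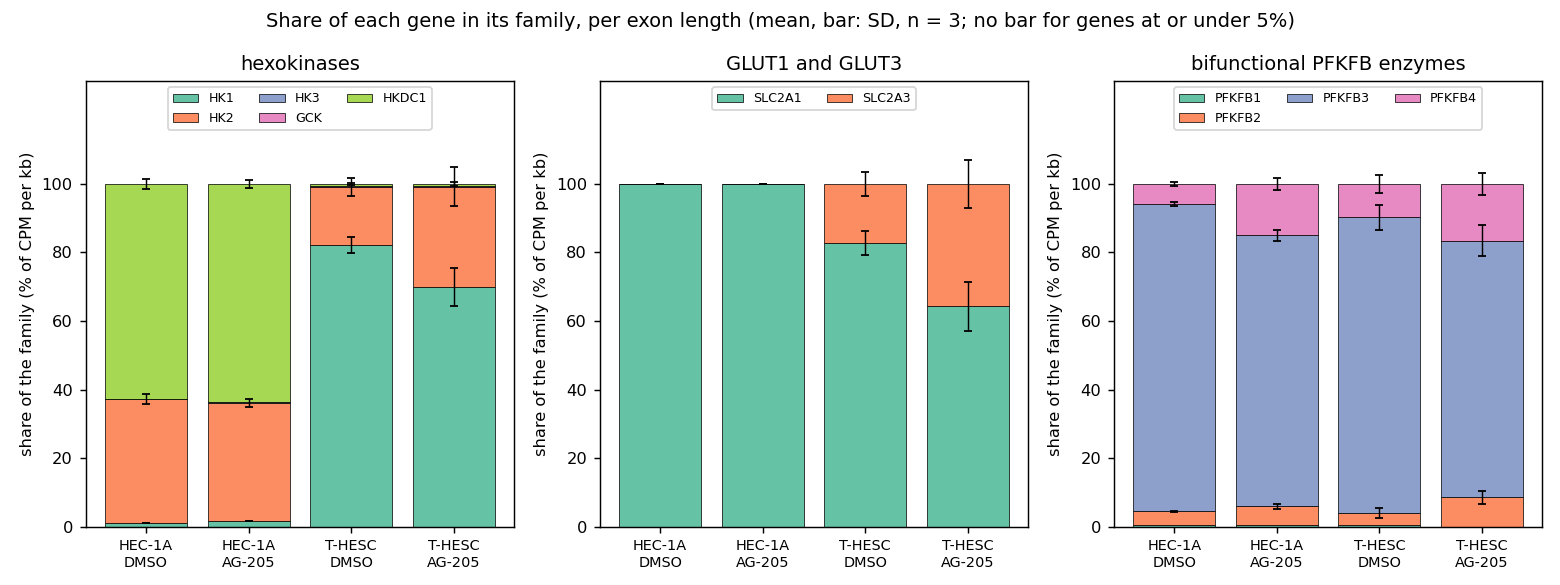
Share of each gene in the summed level per kb of its family, in percent, as means over 3 libraries for the 4 groups, for the hexokinases, the transporters SLC2A1 (GLUT1) and SLC2A3 (GLUT3) and the PFKFB enzymes, with error bars for the SD of the larger shares. HKDC1 and HK2 fill the hexokinase bar in HEC-1A and HK1 with HK2 that in T-HESC, and the share of SLC2A3 in T-HESC is larger with AG-205.

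PFKFB3 (chr10:6144934-6254644, plus strand), the isoform with the strongest kinase over phosphatase activity, was at 272, 320 and 286 CPM in HEC-1A and 76.6, 99.1 and 98.6 CPM in T-HESC (3.22-fold lower, log2 difference -1.69 ± 0.124 SE, edgeR adjusted p = 3.70e-06). It remained the main PFKFB transcript in both lines, at 89.6 ± 0.594% and 86.1 ± 3.74% of the family per kb. PFKFB4 (chr3:48517684-48562015, minus strand) stood at 19.4, 18.8 and 19.0 CPM in HEC-1A and 9.16, 14.5 and 7.59 CPM in T-HESC, a log2 difference of -0.87 (edgeR adjusted p = 0.00619) under the fold limit, which reached -1.15 without T-HESC DMSO replicate 2. The remaining 4 genes did not pass the test: ALDOA (log2 difference -0.27, edgeR adjusted p = 0.0571), ALDOC (0.37, 0.10), PGK1 (-0.24, 0.0793) and LDHA (0.18, 0.120).

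**Figure D3:**
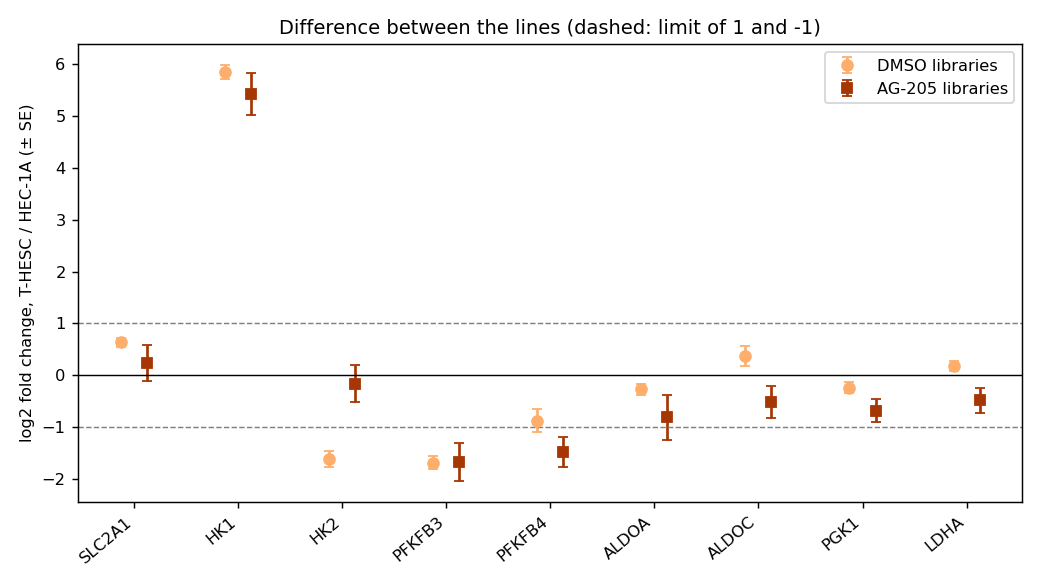
Log2 difference of T-HESC against HEC-1A with its SE for 9 of the genes, in the DMSO libraries and in the AG-205 libraries (3 against 3 in each). SLC2A3 is left out because it was nearly uncounted in HEC-1A. HK1 lies at 5.85 and 5.42, PFKFB3 lies below -1 in both, and HK2 lies below -1 with DMSO and near 0 with AG-205.

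In the AG-205 libraries, which share no sample with the DMSO comparison, 4 of the 10 genes were again called, against 43.4% of 15201 genes tested (21.7% higher and 21.7% lower): SLC2A3 and HK1 higher in T-HESC and PFKFB3 and PFKFB4 lower. The call of SLC2A3 is again a description, since only its T-HESC libraries passed the filter on low counts. HK1 was 42.9-fold higher (log2 difference 5.42), PFKFB3 had a log2 difference of -1.67 (edgeR adjusted p = 0.00558) and PFKFB4 one of -1.48 (0.00286). SLC2A3 had 4367 counts in T-HESC and 2 in HEC-1A, a ratio of 2248 (95% counting interval 622 to 18569). HK2 was not called there, with a log2 difference of -0.16 (edgeR adjusted p = 0.729), or 0.08 without T-HESC AG-205 replicate 1. PGK1, at -0.68, passed the adjusted p (0.0300) and not the fold limit. Without that library PFKFB3 was at -1.39, PFKFB4 at -1.23 and HK1 at 5.71, with adjusted p under 0.05 for each, and the number of genes called was again 4.

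AG-205 was next compared with DMSO within each line, to ask which of these genes respond to the compound. In HEC-1A, 1 of the 8 genes tested was called, PFKFB4, which was higher, against 2.78% of all 14122 genes (2.58% called higher). Without the fold limit 2 of 8 passed, PFKFB4 and HK1, both higher, against 11.6% of all genes (7.35% higher). In T-HESC none of the 9 genes tested was called by edgeR, against 0.08% of all 13753 genes, while 4 of 9 (SLC2A3, HK2, PFKFB4 and LDHA) had an unadjusted p under 0.05, against 740 of all genes, and DESeq2 called none of the 9 either. Their median log2 fold change was 0.12 for HEC-1A (8 genes) and -0.06 for T-HESC (9 genes), beside 0.01 and 0.02 over all genes.

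ALDOC (chr17:28573115-28576948, minus strand) encodes aldolase C, the isoform best known from brain. In HEC-1A its level was 4.55, 4.42 and 5.44 CPM with DMSO and 23.4, 20.1 and 19.5 CPM with AG-205, 4.51-fold higher (log2 fold change 2.17 ± 0.145 SE). In T-HESC it was 6.76, 5.63 and 6.30 CPM with DMSO and 8.50, 17.2 and 19.2 CPM with AG-205, 2.37-fold higher (1.24 ± 0.325 SE), or 1.5 on the log2 scale without T-HESC AG-205 replicate 1. Every AG-205 library of both lines lay above every DMSO library of its line, and replicate 1 of T-HESC lay nearest to the controls. These are the values for which ALDOC was chosen. Its counts were 55 to 349 per library, and no count fell on the antisense gene that covers 11.3% of its exon length.

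ALDOA (chr16:30064164-30070457, plus strand), the aldolase of muscle and most other cells, stood at 33.8, 29.8 and 32.5 CPM with DMSO and 29.5, 32.6 and 23.6 CPM with AG-205 in HEC-1A, where the groups overlapped (-0.12 ± 0.122 SE on the log2 scale, adjusted p = 0.585 by edgeR). In T-HESC it was at 24.5, 26.3 and 29.1 CPM with DMSO and 6.22, 20.5 and 23.6 CPM with AG-205. The AG-205 libraries lay below the controls and the gene did not pass the test (-0.69 ± 0.421 SE on the log2 scale, adjusted p = 0.993 by edgeR, and -0.32 without replicate 1). The 71 to 448 counts of ALDOA per library are few beside the 12546 to 37595 of GAPDH, an enzyme of the same pathway. The gene ENSG00000285043, which lies on the same strand and shares most of the 1350 coding bases of ALDOA, itself held 12 to 52 counts. How reads inside both genes were counted is not given in the sources used here, so the values of ALDOA stand for the reads assigned to it.

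PFKFB4, a kinase and phosphatase of fructose 2,6-bisphosphate and a known hypoxia target, had 19.4, 18.8 and 19.0 CPM with DMSO and 56.8, 52.8 and 45.1 CPM with AG-205 in HEC-1A. It rose 2.78-fold there (1.48 ± 0.110 SE on the log2 scale, adjusted p = 2.57e-06 by edgeR), and the called direction held in all 11 alternatives, with log2 fold changes from 1.40 to 1.55. In T-HESC it was at 9.16, 14.5 and 7.59 CPM with DMSO and 11.4, 23.1 and 22.1 CPM with AG-205, so that the groups overlapped in 1 library (0.83 ± 0.353 SE on the log2 scale, adjusted p = 0.911 by edgeR, and 1.07 without replicate 1). PFKFB3 was at 307, 315 and 207 CPM with AG-205 in HEC-1A (-0.04 ± 0.140 SE on the log2 scale, adjusted p = 0.879 by edgeR) and at 49.3, 84.9 and 133 CPM in T-HESC (-0.06 ± 0.334 SE, adjusted p = 0.993, and 0.21 without replicate 1). Both PFKFB3 values lay around their controls, and their signs turned when single libraries were left out. The share of PFKFB4 in the PFKFB family per kb was 5.88 ± 0.536% with DMSO and 15.0 ± 1.72% with AG-205 in HEC-1A, and 9.79 ± 2.69% and 16.6 ± 3.13% in T-HESC. No library of one treatment reached those of the other within a line, and the shares were not tested.

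**Figure D4:**
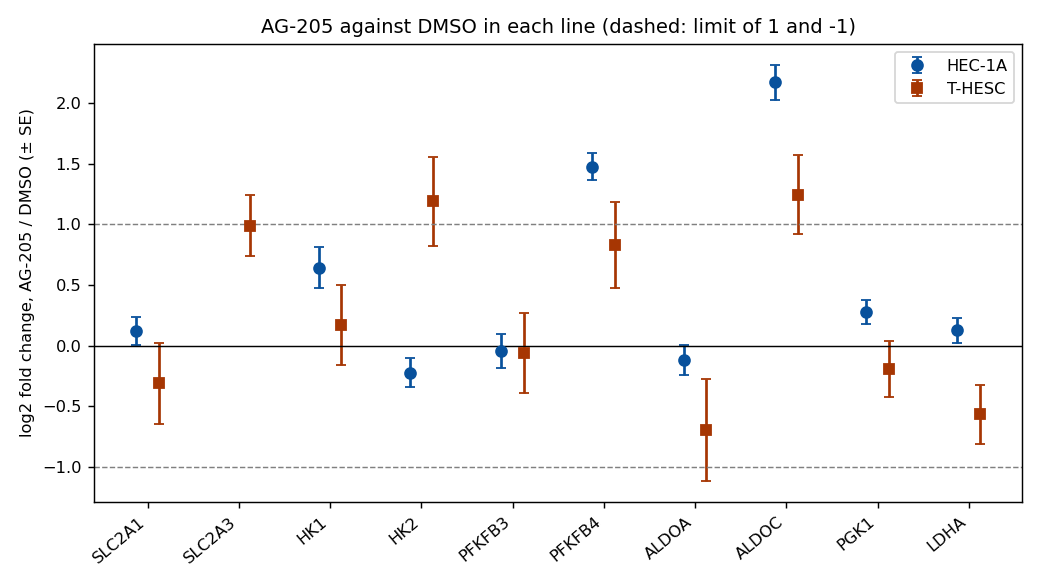
Log2 fold change of AG-205 against DMSO with its SE for each of the 10 genes in HEC-1A and T-HESC, with dashed lines at the fold limit of 1 and -1. In HEC-1A only PFKFB4 and ALDOC lie above 1, in T-HESC HK2 and ALDOC do with wider errors, and SLC2A3 has no HEC-1A value because its counts there were at most 3 per library.

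Among the transporters, SLC2A3 in T-HESC had 46.3, 74.2 and 61.1 CPM with DMSO and 97.5, 122 and 143 CPM with AG-205. The groups did not overlap and the ratio was 1.98, with a log2 fold change of 0.99 ± 0.250 SE that did not pass the test (edgeR adjusted p = 0.440, and 1.09 without replicate 1 with an adjusted p of 0.125). SLC2A1 in T-HESC ranged from 254 to 279 CPM with DMSO and spread over 117, 207 and 320 CPM with AG-205 (-0.31 ± 0.332 SE on the log2 scale, adjusted p = 0.993 by edgeR, and -0.04 without replicate 1). Within each T-HESC library the share of SLC2A3 in the summed level per kb of both transporters was 14.2, 21.0 and 16.7% with DMSO and 43.1, 34.9 and 29.0% with AG-205. The shares of all 3 AG-205 libraries lay above those of the controls, with the highest in replicate 1, where SLC2A1 was lowest. These shares were not tested. In HEC-1A, SLC2A1 was at 184, 205 and 145 CPM with AG-205, on both sides of its controls (0.12 ± 0.115 SE on the log2 scale, adjusted p = 0.545 by edgeR).

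HK2 lay on opposite sides of the controls in the lines. In HEC-1A it stood at 127, 143 and 128 CPM with DMSO and 123, 120 and 88.5 CPM with AG-205 (-0.22 ± 0.119 SE on the log2 scale, adjusted p = 0.261 by edgeR), and in T-HESC at 35.8, 54.9 and 40.6 CPM with DMSO and 62.6, 79.4 and 162 CPM with AG-205 (1.19 ± 0.365 SE, adjusted p = 0.558). Groups did not overlap in either line. The HEC-1A value ranged from -0.30 to -0.10 when single libraries were left out. The T-HESC value passed only without the filter on low counts, with an adjusted p of 0.0353, and was 1.41 without replicate 1 (adjusted p = 0.153). HK1 in HEC-1A was at 6.78, 6.99 and 5.29 CPM with AG-205, all above its controls, 0.64 ± 0.171 SE on the log2 scale (adjusted p = 0.0293 by edgeR) from 45 to 101 counts per library. That p stayed under 0.05 in 3 of 11 alternatives and ranged from 0.00204 to 0.608 over them. HK1 in T-HESC spread over 149, 310 and 384 CPM with AG-205, around its controls (log2 fold change 0.17, or 0.45 without replicate 1). Within each T-HESC library, HK2 made up 16.2, 19.8 and 14.8% of the summed hexokinase level per kb with DMSO and 32.3, 22.7 and 32.8% with AG-205, and the mean share of HK1 was 82.2% and 69.9 ± 5.46% in turn. The shares were not tested. In HEC-1A with AG-205 the mean shares were 63.7 ± 1.19% for HKDC1 and 34.4 ± 1.16% for HK2, whose libraries overlapped those of the controls.

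PGK1 (chrX:77910739-78129295, plus strand) was at 567, 528 and 550 CPM with DMSO and 611, 619 and 711 CPM with AG-205 in HEC-1A, where all AG-205 libraries lay above the controls without passing the test (0.28 ± 0.0977 SE on the log2 scale, adjusted p = 0.0903 by edgeR). In T-HESC it was at 456, 535 and 412 CPM with DMSO and 415, 445 and 370 CPM with AG-205, which overlapped (log2 fold change -0.19 ± 0.230 SE, and -0.25 without replicate 1). LDHA (chr11:18394560-18408425, plus strand), the subunit that prevails in glycolytic cells, did not pass in HEC-1A (0.13 ± 0.101 SE, edgeR adjusted p = 0.466). In T-HESC it was at 1170, 1350 and 1142 CPM with DMSO and 811, 955 and 711 CPM with AG-205, with no overlap and a log2 fold change of -0.57 ± 0.242 SE that did not pass (edgeR adjusted p = 0.917, and -0.60 without replicate 1). LDHA made up 97.4 to 98.3% of the LDH subunits per kb in the T-HESC controls and 86.4, 96.7 and 98.1% with AG-205, the lowest share in replicate 1, in which LDHB stood at 62.9 CPM against 16.4 and 6.91 CPM in the others.

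Without ALDOC, whose separation follows from how it was picked, the AG-205 and DMSO libraries were apart for 4 of 8 genes tested in HEC-1A, against 32.4% of all genes tested there, and for 4 of 9 in T-HESC, against 10.9%. In HEC-1A these were HK1, PFKFB4 and PGK1 with higher values and HK2 with lower values, and in T-HESC SLC2A3 and HK2 with higher and ALDOA and LDHA with lower values. The difference of the AG-205 effect between the lines was called by edgeR for none of 8 genes tested, against 0.174% of 16132 genes, and DESeq2 called none. With edgeR, 2 of 8 (HK2 and LDHA) had an unadjusted p under 0.05, against 1025 of the 16132 genes. HK2 had the largest difference among the 8, 1.44 ± 0.413 SE in T-HESC minus HEC-1A (edgeR adjusted p = 0.399), and it was 1.67 without T-HESC AG-205 replicate 1 (adjusted p = 0.0607). LDHA had -0.68 ± 0.229 SE (edgeR adjusted p = 0.556), the difference of ALDOC was -0.90 ± 0.361 SE with no test, and those of the other 6 lay between -0.62 for PFKFB4 and 0.01 for PFKFB3.

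Around these 10 genes, 89 others of the same metabolism were listed in 7 groups, with earlier results of these data known. The shares of all genes given beside the lists are therefore a description and not a test of the lists. In HEC-1A, 16 of the 68 tested passed an adjusted p of 0.05 with AG-205 (14 higher and 2 lower) and 3 of them passed the fold limit, all higher, beside 11.6% of all genes passing (7.35% higher) and 2.78% called. In T-HESC none of 67 passed by edgeR or of 69 by DESeq2. With edgeR, 4 of the 67 (SLC2A6, PFKFB2, PDP2 and MPC2) had an unadjusted p under 0.05, against 740 of all 13753 genes. No difference between the lines was called by edgeR in 73 tested, with 6 at an unadjusted p under 0.05, against 1025 of all 16132 genes. DESeq2 called 2 differences, SLC2A6 and NDRG1, both with the lower log2 fold change in T-HESC. Among the other glucose transporters 1 of 5 tested rose in HEC-1A. This was SLC2A6, a transporter-like protein of lysosomal membranes, from 3.64, 4.75 and 5.35 CPM with DMSO to 41.1, 41.5 and 30.5 CPM with AG-205 (8.50-fold, 3.09 ± 0.168 SE on the log2 scale, adjusted p = 1.46e-07 by edgeR), above every one of the 10 genes in size. SLC2A6 stood at 22.0, 17.1 and 41.9 CPM in T-HESC with AG-205, above its controls at 16.0, 12.6 and 8.29 CPM.

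The counts of each list stand beside the 7.35% of all genes that were higher at an adjusted p under 0.05 in HEC-1A. Of the other glycolytic enzymes 3 of 15 rose in HEC-1A and 12 did not pass, with a median log2 fold change of 0.00 beside 0.01 over all genes. They were the enolases ENO2 (0.65 on the log2 scale, adjusted p = 0.000974 by edgeR) and ENO3 (0.62, 0.0312) and PFKFB2 (0.61, 0.0200), all under the fold limit. In pyruvate and lactate handling 3 of 14 rose and 1 fell: the lactate exporter SLC16A3 (MCT4) went from 39.3, 44.4 and 36.1 CPM to 79.1, 86.8 and 62.5 CPM (0.97 ± 0.125 SE on the log2 scale, adjusted p = 0.00033 by edgeR), the pyruvate dehydrogenase phosphatases PDP2 (0.87) and PDP1 (0.57) rose, and the monocarboxylate transporter SLC16A1 (MCT1) fell by 0.49. Of 7 pentose phosphate genes PGD rose (0.59, edgeR adjusted p = 0.000728) and RPIA fell by 0.46. Of the other hypoxia-induced genes 4 of 12 rose, namely NDRG1 (1.33, edgeR adjusted p = 5.21e-05), CA12 (0.54), P4HA2 (0.38) and BNIP3L (0.33), and 8 did not pass, with a median of 0.22. Of the regulators, 1 of 7 rose in HEC-1A: MLXIPL (ChREBP), the glucose-sensing transcription factor, went from 6.29, 6.52 and 5.99 CPM to 19.6, 17.6 and 12.4 CPM (1.45 ± 0.171 SE, edgeR adjusted p = 0.000163) and had no count in T-HESC. Of 8 genes of gluconeogenesis and glycogen, GBE1 rose (0.34).

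**Figure D5:**
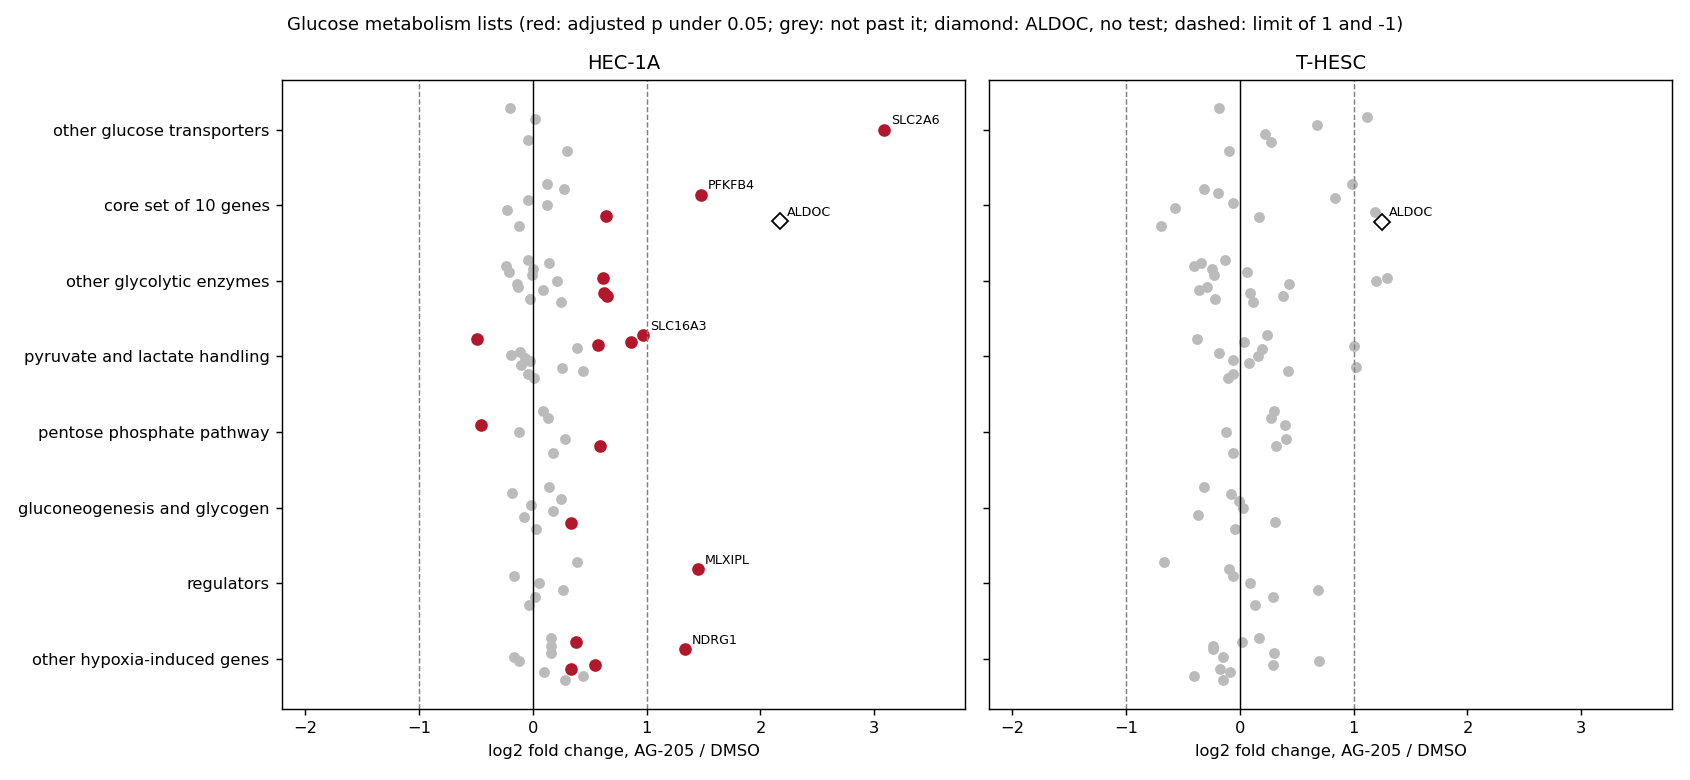
Log2 fold change of AG-205 against DMSO for every tested gene of the 10 described here (core set) and of the 7 related lists, in HEC-1A and T-HESC, with the genes at an adjusted p under 0.05 marked. Only HEC-1A holds marked genes, SLC2A6 among them at 3.09.

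Between the lines, 54 of 72 such genes passed an adjusted p of 0.05 in the DMSO libraries and 33 were called, beside 72.1% and 44.6% of all genes. Beside HKDC1, the glycolytic enzymes called were GPI, at 740 to 798 CPM in HEC-1A and 182 to 203 CPM in T-HESC, PFKFB2 (log2 difference -1.76) and BPGM (1.77). SLC16A3 was at 500, 524 and 584 CPM in T-HESC, 13.4-fold above HEC-1A (log2 difference 3.74 ± 0.121 SE, edgeR adjusted p = 2.64e-08). The transporter SLC2A10 held 564 to 706 counts in the libraries of T-HESC controls and at most 1 in HEC-1A, and SLC2A9 had 56 to 63 counts in HEC-1A controls and at most 1 in those of T-HESC. TXNIP, an inhibitor of glucose uptake that ChREBP and MondoA induce, had 829 to 4517 counts in T-HESC controls and at most 1 in HEC-1A. Of the hypoxia list, 7 of 13 tested were called higher in T-HESC and 3 lower, with ADM at 255 to 632 CPM against 3.70 to 4.99 CPM and VEGFA at 31.7 to 81.9 CPM against 358 to 369 CPM in HEC-1A.

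The 5 genes whose log2 CPM, centred on each gene's mean, was closest to that of ALDOC over the 12 libraries included MVK, NSDHL and ERG28, with root mean square differences of 0.287, 0.341 and 0.358 among 12007 genes, whose median was 1.03. This likeness includes the AG-205 values for which ALDOC was picked and is a description. MVK (mevalonate kinase) and NSDHL are enzymes of cholesterol synthesis, and ERG28 is a scaffold of the sterol demethylation complex. MVK had a log2 fold change of 1.82 ± 0.0983 SE in HEC-1A and of 1.64 ± 0.237 SE in T-HESC, beside 2.17 and 1.24 for ALDOC. The mean level of MVK went from 22.8 to 78.4 CPM in HEC-1A and from 21.7 to 68.1 CPM in T-HESC. None of the other 9 glycolysis genes was among these 5. The RefSeq windows of MVK, NSDHL and ERG28 all held the CCAAT box at 3 to 5 places, which the ALDOC window lacked, while none held the hypoxia core in the form ACGTG, the E-box or the sterol element.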

How the data were processed

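RNA was sequenced after polyA selection from 12 cultures in 4 groups of 3 libraries, which the study's methods describe as 3 independent cell culture experiments. Per the submitters' processing notes and the methods, the authors trimmed paired reads (Trimmomatic 0.38), aligned them (HISAT2 2.1.0, GRCh38) and counted them by gene (featureCounts in Subread 2.0.0, Ensembl 94). They deposited raw counts per gene, without normalization, for 58735 genes, of which 23756 had no count. Strandedness and the counting of reads inside several genes are not given in the sources used here, so overlapping genes and pseudogenes (at most 27 counts for those of the 10 genes) carry that uncertainty. Here, counts were scaled by TMM over all 12 libraries to give CPM, divided by the union exon length in GENCODE 44 for values per kb, and tested with the quasi-likelihood test of edgeR 4.0.16 in R 4.3.3 after filterByExpr, with p-values adjusted after Benjamini-Hochberg over the whole table (14122 genes for HEC-1A, 13753 for T-HESC). Calls needed an adjusted p below 0.05 and a change of more than 1 on the log2 scale in either direction, as in the study. SE came from the quasi-likelihood F value. SLC2A3, with 3 counts or fewer in all HEC-1A libraries, was treated as at the floor, and its ratio was given with an exact interval.

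The members and lists were chosen with earlier results of these data known. All 10 members are named. Of each list, up to 4 genes with the smallest p (AG-205) or the largest difference among called genes (lines) were eligible, and the 5 genes most like ALDOC were taken by root mean square difference of log2 CPM with a prior count of 2, of which 3 are reported here. GAPDH, LDHB, and genes named because few of a list passed (MPC2 among them) were named after their values were seen. Alternatives were DESeq2 1.42.0, RLE size factors, no filter, a replicate block, calls with no fold limit, a joint fit of the 12 libraries and the omission of each library. The procedure was tested on simulated data. An exact permutation test of 3 against 3 libraries cannot give a p under 0.1. Figures were drawn with matplotlib 3.10.9.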

Additional observations from a re-analysis of the deposited data

Results flagged for a closer look

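HK2 was the gene whose AG-205 effect pointed in opposite directions in the lines in every library: all 3 HEC-1A libraries with AG-205 lay below all their controls and all 3 T-HESC libraries with AG-205 lay above theirs. The HEC-1A side was small, a log2 fold change of -0.22 that did not pass (edgeR adjusted p = 0.261). It ranged from -0.30 to -0.10 when single libraries were left out, and the T-HESC value from 0.71 to 1.41. The difference of the effects, T-HESC minus HEC-1A, was 1.44 on the log2 scale (± 0.413 SE). It was tested with edgeR over 16132 genes and did not pass (adjusted p = 0.399, unadjusted p = 0.00437). With DESeq2 the adjusted p was 0.144, and without the filter on low counts it was 0.00315, from a fit in which more genes were tested. Over the 16 alternatives the difference ranged from 0.95 to 1.67, and its adjusted p from 0.00315 to 0.883.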

How the results depend on the processing

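Of 573 alternative values of 48 fold changes of the 10 genes, 557 were counted as unchanged, 13 reversed and 3 newly passed. Unchanged values kept their direction and their side of the joint threshold of adjusted p and fold limit. A gene under the fold limit thus counted as unchanged even where its adjusted p alone changed sides. HK1 with AG-205 in HEC-1A was unchanged in all 11 alternatives. Its adjusted p by edgeR or DESeq2 ranged from 0.00204 to 0.608 and passed in 3 of them. PGK1 between the lines with AG-205 was also unchanged in all 11, with adjusted p from 0.00186 to 0.144. The AG-205 values of ALDOC and their difference between the lines had no test. They were counted as unchanged where they kept their direction and lay within 1 SE of the main value. The reversals were of values near 0, and the cause was not tested. For PFKFB3 with AG-205 in HEC-1A the log2 fold change was 0.12 without AG-205 replicate 3 and 0.02 without DMSO replicate 2, and in T-HESC between -0.44 and 0.21, with 0.21 without AG-205 replicate 1 and 0.00159 without DMSO replicate 2. For the PFKFB3 difference of effects it was -0.000217 with RLE size factors and between -0.38 and 0.28 when libraries were left out, with -0.16, -0.06, -0.38 and -0.10 without HEC-1A AG-205 replicate 3, HEC-1A DMSO replicate 2, T-HESC AG-205 replicate 3 and T-HESC DMSO replicate 1. HK1 in T-HESC ranged from -0.10 (without AG-205 replicate 3) to 0.45. Between the lines with AG-205, HK2 ranged from -0.64 to 0.0816 (without T-HESC replicate 1) and SLC2A1 from -0.14 (without T-HESC replicate 3) to 0.53. HK2 newly passed without the filter in T-HESC (1.19) and in the difference of effects (1.47), each making 1 gene called, and PFKFB4 between the lines (-1.15) without T-HESC DMSO replicate 2. Without a fold limit, 2 of 8 genes passed in HEC-1A.

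Over all genes, the calls in HEC-1A were 393, with 1643 without a fold limit and 141 in the fit of all 12 libraries. In T-HESC 11 genes were called, with 114 by DESeq2, 181 without the filter, 160 in the fit of all 12 libraries and 0 to 72 when single libraries were left out, the highest without AG-205 replicate 1. For the difference of effects there were 28 calls, with 86 by DESeq2, 141 without the filter, none with the replicate block and 4 to 80 when libraries were left out, the highest again without T-HESC AG-205 replicate 1. Between the lines with DMSO, 10664 genes passed without a fold limit against 6593 with it. With the replicate block, the PFKFB3 difference of effects was -0.0654. The replicate numbers gave no steady pairing: correlations of same-numbered deviations were -0.08, 0.23 and 0.00 in HEC-1A and 0.22, -0.53 and -0.04 in T-HESC. Between libraries of different numbers they ranged from -0.25 to 0.24 in HEC-1A and from -0.54 to 0.69 in T-HESC. The value of 0.69 was for AG-205 replicate 2 with DMSO replicate 3. Whether libraries of different numbers shared a culture experiment was not tested, and the main fits used no pairing. With the block there were 363 calls for HEC-1A against 9 for T-HESC, and the number of the 10 genes called was the same in all 5 comparisons. The depth limits SLC2A3 in HEC-1A, where at most 2 counts per library allow no fold.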
